A study of Mus musculus with 12 samples.

Results

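The cell cycle and proliferation genes described here were 58 genes of S phase, G2 and M phase, cyclins and cyclin inhibitors, chosen by name. They were followed in CD8+ tumor-infiltrating T cells of A2AR eGFP reporter mice, and all 58 had 10 or more counts in at least 3 libraries, out of 52636 gene identifiers in the count table. The mice were on a C57BL/6 background and carried a bacterial artificial chromosome transgene, Tg(Adora2a-EGFP), in which eGFP stands under the regulatory sequences of Adora2a, the gene of the adenosine receptor A2AR. GFP therefore marks activity of the transgene and not the receptor protein itself. Mice aged 6 to 16 weeks received 500000 AT3ova cells, an ovalbumin-expressing mouse mammary carcinoma line, under the skin, and tumors were taken on day 21. The 4 groups were GFP- and GFP+ cells of non-treated mice and GFP- and GFP+ cells of mice given anti-PD-L1, an antibody to the ligand of PD-1, on days 14 and 18. Each group had 3 libraries and each library pooled 3 mice. Reads were taken from the 3′ ends of transcripts (QuantSeq), and the unit used throughout is CPM, the count of a gene relative to the library's total after TMM normalization, which scales libraries to each other.

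A T cell that enters division first licenses its replication origins with the MCM helicase and makes deoxynucleotides, under the control of E2F factors, and later builds a spindle and splits its chromosomes under cyclin B and Cdk1. D-type cyclins with Cdk4 and Cdk6 open the way into S phase, and inhibitors such as p27 and the INK4 proteins hold it shut. PD-1 signaling restrains T cell receptor and CD28 signals, and expansion of CD8+ T cells after its blockade is a known response, while tumor-infiltrating CD8+ T cells range from cycling precursors to cells that no longer divide.

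Genes of S phase often carry E2F sites near their start, and genes of mitosis often carry a CCAAT box with a cell cycle homology region (CHR). RefSeq promoters of 300 bases (GRCm38.p6, 250 before and 50 after the start) were matched for 49 of the 58 genes and searched on both strands for CCAAT, for the CHR letters TTTGAA or TTTAAA, and for the E2F letters TTCCCGC or TTGGCGC. The searches were independent, so matches may share bases. Shown are the 4 promoters, among those with a CCAAT box or a CHR, of the genes with the smallest unadjusted p for anti-PD-L1 treatment in the 10 libraries defined below. Capitals mark every match in either orientation. The gene Mki67 itself lies on the minus strand at chr7:135689784-135716361 (mm10). Its promoter, at chr7:135716330-135716629 on the minus strand, held 3 CCAAT boxes, 2 CHR letters and 1 E2F match.
Mki67: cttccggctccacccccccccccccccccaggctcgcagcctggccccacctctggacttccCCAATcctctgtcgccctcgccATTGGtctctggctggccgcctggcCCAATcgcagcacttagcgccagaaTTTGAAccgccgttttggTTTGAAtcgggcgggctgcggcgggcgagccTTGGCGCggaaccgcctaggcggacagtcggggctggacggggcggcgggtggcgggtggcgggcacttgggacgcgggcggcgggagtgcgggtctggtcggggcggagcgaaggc
Cenpa (chr5:30666636-30666935, plus strand) held 2 CCAAT boxes and 2 CHR matches.
Cenpa: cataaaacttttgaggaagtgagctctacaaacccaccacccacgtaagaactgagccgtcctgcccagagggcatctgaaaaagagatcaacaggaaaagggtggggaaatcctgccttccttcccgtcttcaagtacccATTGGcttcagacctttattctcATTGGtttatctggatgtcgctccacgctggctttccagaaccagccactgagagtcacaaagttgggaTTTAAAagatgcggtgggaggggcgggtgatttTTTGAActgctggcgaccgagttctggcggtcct
Mcm7 had 2 matched promoters, and the 1 shown is the first by position with a CCAAT box or a CHR. It lies inside the annotated gene (chr5:138164583-138172422). This promoter (chr5:138171217-138171516, minus strand) held 1 CCAAT box and 1 E2F match and no CHR letters.
Mcm7: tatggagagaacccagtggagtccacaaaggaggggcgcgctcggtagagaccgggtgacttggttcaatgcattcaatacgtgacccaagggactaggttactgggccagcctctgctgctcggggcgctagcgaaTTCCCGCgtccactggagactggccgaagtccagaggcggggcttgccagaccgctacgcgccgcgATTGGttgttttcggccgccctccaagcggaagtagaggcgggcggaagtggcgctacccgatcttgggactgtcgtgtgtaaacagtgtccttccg
Cenpf (chr1:189688037-189688336, minus strand) held 2 CCAAT boxes and 2 CHR matches.
Cenpf: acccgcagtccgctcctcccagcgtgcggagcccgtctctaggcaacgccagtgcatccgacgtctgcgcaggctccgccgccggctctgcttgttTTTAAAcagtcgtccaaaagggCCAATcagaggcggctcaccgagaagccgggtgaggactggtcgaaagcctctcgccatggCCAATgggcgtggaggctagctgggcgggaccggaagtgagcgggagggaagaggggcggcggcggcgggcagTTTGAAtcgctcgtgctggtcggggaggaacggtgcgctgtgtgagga
At least 1 promoter held CCAAT in 37 of the 49 genes (75.5%, against 41.1% of all 27025 genes with a promoter). CHR letters were found in 28 genes (57.1% against 30.6%) and both in 25 (51.0% against 12.2%). E2F letters were found in 15 genes (30.6% against 7.79%). Among the 16 mitotic genes matched, 13 (81.2%) held CCAAT with CHR letters and 1 (6.25%) held E2F letters. Of the 8 replication genes matched, 3 (37.5%) held CCAAT with CHR letters and 5 (62.5%) held E2F letters. These matches are letters in a window and not measured binding.

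Between 11292699 and 19023900 reads were counted per library. Adora2a stood between 60.2 and 111 CPM in GFP+ libraries and between 19.7 and 34.6 CPM in GFP- libraries. The summed CPM of 10 T cell markers, Cd8a and Cd3e among them, was 4770 to 7130, and none of them was at 0 in any library. Of the GFP+ libraries, KT13 (non-treated) and KT21 (anti-PD-L1) stood apart. Their median Spearman correlation with the others over genes was 0.941 and 0.935, against 0.967 to 0.977 for the remaining 10 libraries. Fitted values are therefore given over all 12 libraries and over the 10 without KT13 and KT21, while counts of groups that do not overlap are over all 12. Within a group, values are listed in the order of the library codes, so that KT13 is the first non-treated GFP+ value and KT21 the middle anti-PD-L1 GFP+ value. In the annotation, 13 of the 58 genes overlap another counted gene on the opposite strand (Mcm7, Gins2, Cdc45, Tk1, Ccna2, Ccne2, Ccnd2, Ccnd3, Cdk4, Cdk6, Cdc20, Kif20a and Nusap1), and whether the counting used strand is not given in the sources used here, so a share of their reads may belong to the partner.

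Summed over all 58 genes, the level of cell cycle transcripts did not separate the groups. Together the genes took 0.466 to 0.594% of the counts of a library. A few abundant genes weigh most in this sum, among them Tuba1b (546 to 1070 CPM), Ccnd2 (734 to 973 CPM) and Tubb5 (337 to 804 CPM). Mki67, by comparison, stood at 57.0 to 120 CPM. The sum also holds the kinase inhibitors. The summed CPM was 5525, 5734 and 5770 in non-treated GFP- libraries and 5636, 5761 and 5803 in non-treated GFP+ libraries. It was 5566, 4962 and 5524 in anti-PD-L1 GFP- libraries and 5672, 5233 and 4745 in anti-PD-L1 GFP+ libraries. Groups that differ only in GFP or only in treatment overlapped, and the lowest sums were those of KT22 and KT23, both treated. Group means were 5676 ± 132 and 5733 ± 86.9 CPM (SD, n = 3 each) in non-treated GFP- and GFP+ cells, and 5351 ± 337 and 5217 ± 464 CPM in anti-PD-L1 GFP- and GFP+ cells. In pooled RNA such as this, fewer cycling cells and less transcript per cycling cell cannot be told apart.

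**Figure D1:**
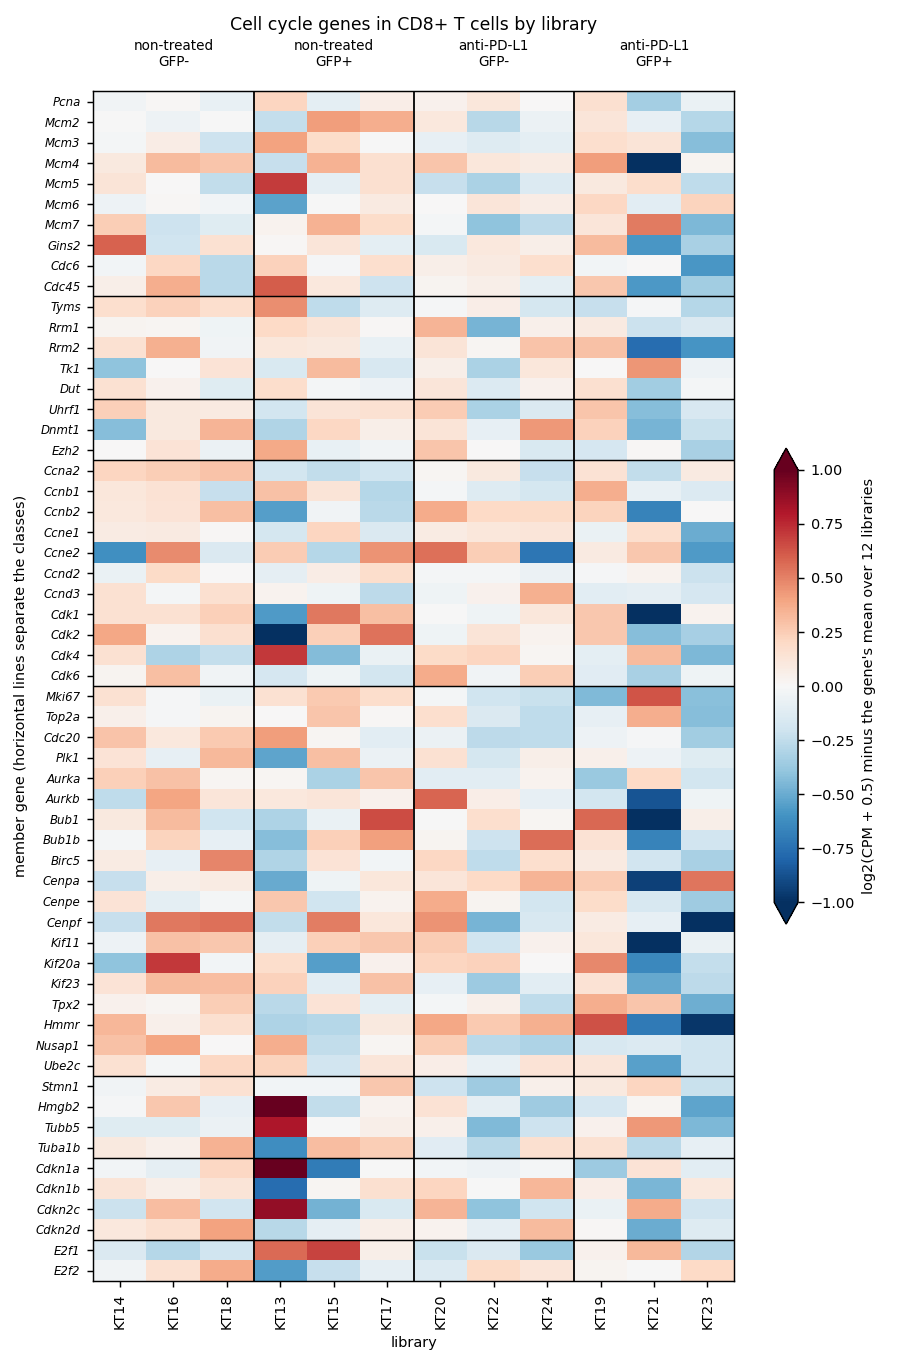
Level of each of the 58 cell cycle genes (rows, grouped by class) in each of the 12 libraries (columns, grouped by condition), as log2(CPM + 0.5) minus the gene's mean over the 12 libraries, with colors ending at 1 either way. Columns KT13 and KT21 hold deep colors in both directions, and KT23 is mostly blue.

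The first question was whether anti-PD-L1 changed these genes. Over 12 libraries and averaged over GFP, no member passed an adjusted p of 0.05 in edgeR's quasi-likelihood test, where 0.395% of all 14173 genes tested did. The smallest adjusted p among members was 0.478, that of Kif23. At an unadjusted p under 0.05, 2 of 58 members (3.45%) passed, Cdc20 and Kif23, both lower, against 7.67% of all genes. DESeq2 and limma-voom also called none (1.27 and 0.931% of all genes), with 2 (3.45%, against 8.30% of all genes in DESeq2) and 7 members (12.1%, against 11.8% in limma-voom) at an unadjusted p under 0.05. The median log2 fold change of the members was -0.11, beside -0.01 over all genes, and 47 of 58 values were below 0. In every member the 95% interval of this difference lay within 1 on the log2 scale either way.

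Without KT13 and KT21, 1 member passed in the same comparison, where 1.36% of 14747 genes did, and 10 (17.2%) had an unadjusted p under 0.05, against 11.2% of all genes. Of these 10, 9 were lower after anti-PD-L1: Mki67, Top2a, Mcm2, Mcm7, Cdc20, Cenpf, Kif23, Stmn1 and Tuba1b. Cenpa, the histone variant that marks centromeres, was the higher one, by 0.31 on the log2 scale (SE 0.108, edgeR adjusted p = 0.217), beside 0.22 over 12 libraries (interval -0.21 to 0.66). The median over members was -0.10 and 40 of 58 values were below 0. All 58 intervals again lay within 1 on the log2 scale.

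**Figure D2:**
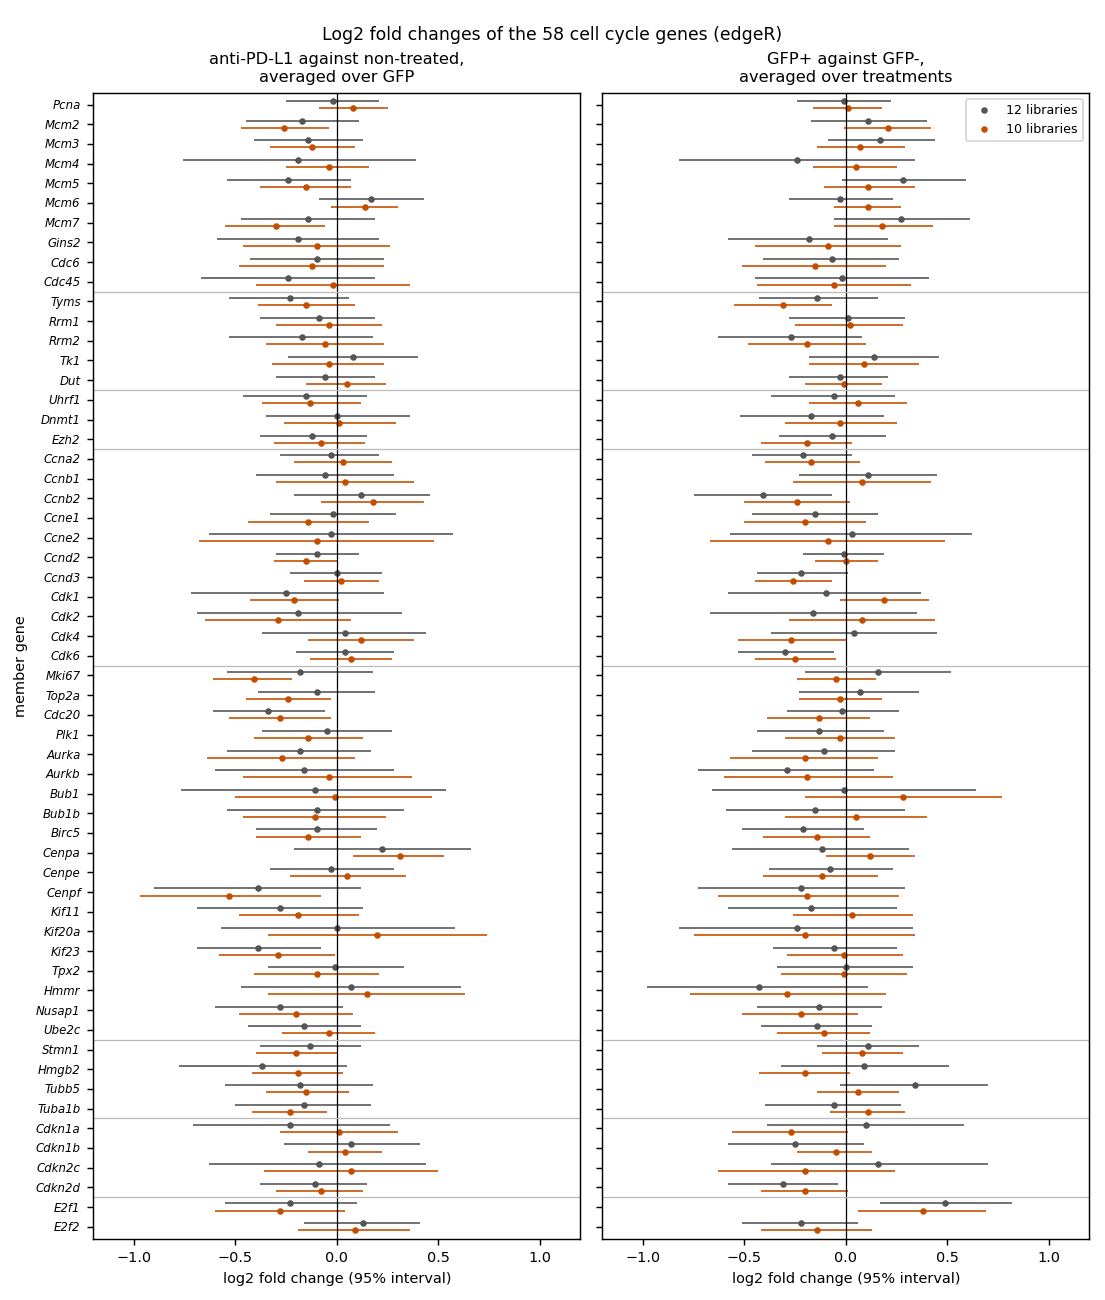
Log2 fold changes (points) with 95% intervals (bars) of the 58 genes for anti-PD-L1 against non-treated cells averaged over GFP (left) and for GFP+ against GFP- cells averaged over treatments (right), over 12 libraries (gray) and over 10 libraries without KT13 and KT21 (orange). No interval reaches 1 on either side, and the gray points of 47 genes on the left lie below 0.

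Mki67, which encodes the Ki-67 protein of mitotic chromosomes and is absent from resting cells, was the gene that passed over 10 libraries. It stood at 86.2, 77.1 and 73.9 CPM in non-treated GFP- libraries and at 86.5, 93.3 and 87.9 CPM in non-treated GFP+ libraries. After anti-PD-L1 it stood at 76.7, 67.6 and 66.6 CPM in GFP- libraries and at 57.0, 120 and 57.8 CPM in GFP+ libraries. The anti-PD-L1 GFP+ group thus held both the lowest levels of the series, KT19 and KT23, and the highest, KT21. Over 12 libraries its log2 fold change after treatment was -0.18 averaged over GFP (95% interval -0.54 to 0.18, adjusted p = 0.934 in edgeR). Over the 10 libraries it fell by 0.41 on the log2 scale (SE 0.0945, interval -0.61 to -0.22, adjusted p = 0.0247), and within GFP+ cells by 0.66 (SE 0.147, interval -0.96 to -0.35, adjusted p = 0.0387). The GFP+ call sets 2 libraries against 2. With KT21 alone left out, Mki67 was not called (-0.63 in GFP+ cells, edgeR adjusted p = 0.124, and -0.40 averaged over GFP, adjusted p = 0.0957), nor with KT13 alone left out (-0.21, adjusted p = 0.918, and -0.19, adjusted p = 0.89).

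This call on Mki67 depended on single libraries. In GFP+ cells, leaving out 1 more of the 10 libraries in edgeR gave an adjusted p of 0.266 without KT15, 0.104 without KT17, 0.147 without KT19, 0.0574 without KT22 and 0.372 without KT23, with log2 fold changes from -0.71 to -0.62. Where this left 1 library in a group, that library was taken to vary like the others. In the average over GFP, the adjusted p was 0.11 without KT15, 0.0666 without KT19, 0.0709 without KT22, 0.128 without KT23 and 0.0614 without KT24, with log2 fold changes from -0.42 to -0.39. The direction held in each of these fits, all of them without KT21. With 1 of all 12 libraries left out, the log2 fold change in GFP+ cells ran from -0.63 without KT21 to 0.01 without KT23. It was -0.01 without KT19. The difference between GFP+ and GFP- cells in the response of Mki67 was -0.49 over 10 libraries (SE 0.189, unadjusted p = 0.0164, adjusted p = 1 in edgeR), and -0.02 over 12 libraries (interval -0.74 to 0.70).

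**Figure D3:**
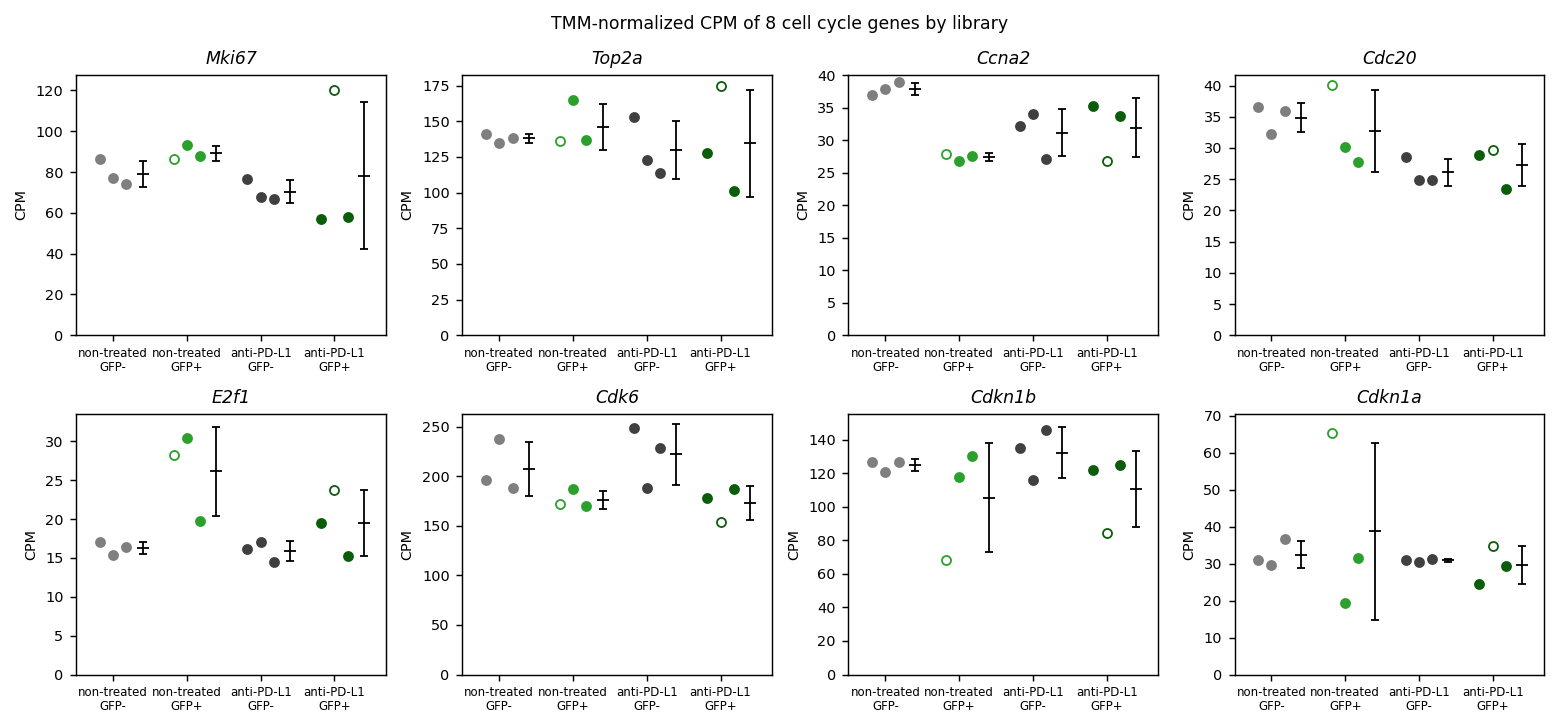
CPM of 8 cell cycle genes (vertical axes, starting at 0) in the 4 groups, 1 point per library, with open points for KT13 and KT21 and bars for mean ± SD (n = 3). In the Mki67 panel the anti-PD-L1 GFP+ points sit at 57.0, 57.8 and 120 CPM, and in the Ccna2 panel the non-treated GFP+ points (26.8 to 27.9) lie below the non-treated GFP- points (37.0 to 38.9).

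Within GFP+ cells, anti-PD-L1 against non-treated gave no called member over 12 libraries (0.0141% of all genes), and 0 of 58 had an unadjusted p under 0.05 against 6.74% of all genes. DESeq2 and limma-voom called none (0.628 and 0.367% of all genes), with 1 (1.72%, against 7.63% of all genes) and 3 members (5.17%, against 8.98%) at an unadjusted p under 0.05. The median was -0.15 with 47 values below 0 over 12 libraries and -0.10 with 40 over 10. Over 10 libraries Mki67 alone passed (0.563% of all genes) and 7 members (12.1%) had an unadjusted p under 0.05, against 8.54% of all genes: Mki67, Top2a, Mcm2, Mcm7, Cenpf and E2f1 lower and Cenpa higher. Over 12 libraries the treated and non-treated GFP+ libraries did not overlap in 2 members (3.45%, against 10.3% of all genes), E2f2 with higher and Aurkb with lower values after treatment.

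Within GFP- cells, which do not include KT13 or KT21, no member was called over 12 libraries (0% of all genes in edgeR) or with the spread of the 10-library fit (0.373% of all genes). At an unadjusted p under 0.05, 2 members passed over 12 libraries (3.45%, against 3.44% of all genes) and 3 over 10 (5.17%, against 7.22%), namely Cdc20 and Kif23 and, over 10, Tuba1b, all lower. DESeq2 and limma-voom called none (0.233 and 0.24% of all genes), with 2 (3.45%, against 4.16% of all genes) and 4 members (6.90%, against 6.94%) at an unadjusted p under 0.05. The 3 treated and 3 non-treated GFP- libraries did not overlap in 6 members (10.3%, against 12.3% of all genes), with Cenpa higher and Tyms, Ccna2, Cdk1, Cdc20 and Kif23 lower after treatment. The median was -0.07 with 39 of 58 values below 0 in both fits.

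Markers of several other cell types also stood lower after treatment. The summed CPM of 12 macrophage markers was 160 to 235 in non-treated GFP- and 214 to 297 in non-treated GFP+ libraries, and 81.3 to 137 and 88.0 to 177 after anti-PD-L1, with none of the 12 at 0 in any library. The 6 B cell markers summed to 100 to 110 and 145 to 172 CPM in non-treated GFP- and GFP+ libraries and to 71.3 to 85 and 94.6 to 129 CPM after treatment. For both lists the treated and non-treated libraries did not overlap within either GFP fraction. Another 4 lists did not overlap in GFP+ cells but did in GFP- cells. Of these, the 7 markers of mammary carcinoma and epithelium, whose cells divide too, summed to 210 to 305 CPM in non-treated and 135 to 198 CPM in anti-PD-L1 GFP+ libraries, and to 232 to 325 and 201 to 305 CPM in GFP- libraries. In GFP+ cells, the summed CPM of dendritic cell markers was between 87.3 and 123 in non-treated and between 50 and 82.6 in treated libraries. That of fibroblast markers was between 17.8 and 71.4 and between 0.444 and 15, and that of endothelial markers between 21.5 and 25.6 and between 10.6 and 17.1, in the same order. Of these 4 lists, 3 of 7, 6 of 8, 5 of 6 and 3 of 5 genes were at 0 in some library. A few genes made up much of these sums. Among the carcinoma markers, Cdh1 stood at 126 to 296 CPM beside Epcam at 3.28 to 14.8 CPM. Among the B cell markers, Ighm stood at 67.2 to 168 CPM beside Cd79a at 0 to 0.94 CPM. Among the dendritic cell markers, H2-Ab1 (29 to 97.3 CPM) and Itgax (9.96 to 37.6 CPM) stood beside Flt3 (0 to 0.362 CPM). Among the endothelial markers, Pecam1 stood at 9.34 to 24.3 CPM beside Cdh5 at 0 to 0.322 CPM. T cell markers stood higher after treatment, without overlap within either GFP fraction. They summed to 5510 to 5650 CPM in non-treated and 6130 to 6430 CPM in anti-PD-L1 GFP- libraries. In GFP+ libraries the sums were 4770 to 5140 CPM and 5510 to 7130 CPM, in the same order. Neither the source of these transcripts nor the part of such cells in the levels of the cell cycle genes was tested.

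The second question was whether A2AR reporter-positive cells differed from reporter-negative cells. In non-treated cells no member was called over 12 libraries (0.00706% of all genes) or over 10 (0.339%). At an unadjusted p under 0.05, 3 members passed over 12 libraries (5.17%, against 6.05% of all genes), namely E2f1 higher and Ccna2 and E2f2 lower in GFP+ cells, and 4 over 10 libraries (6.90%, against 9.24%), E2f1 and Mcm2 higher and Ccna2 and Tyms lower. DESeq2 and limma-voom called none (0.374 and 0.0847% of all genes), with 3 (5.17%, against 7.01% of all genes) and 4 members (6.90%, against 8.11%) at an unadjusted p under 0.05. The groups did not overlap in 8 members (13.8%, against 12.8% of all genes), with Mki67, Tubb5 and E2f1 higher and Ccna2, Ccnb2, Cdk6, Cdkn2d and E2f2 lower in GFP+ cells. The median was -0.03 over 12 libraries and -0.01 over 10, with 32 and 33 of 58 values below 0.

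After anti-PD-L1 no member was called between GFP+ and GFP- cells over 12 libraries (0.0282% of all genes) or over 10 (0.17%). Cdk6 alone had an unadjusted p under 0.05 over 12 libraries (1.72% of members, against 4.08% of all genes), and Cdk4, Cdk6 and Mki67 over 10 (5.17%, against 5.34%), all lower in GFP+ cells. DESeq2 and limma-voom called none (0.268 and 0.141% of all genes), with 1 (1.72%, against 4.67% of all genes) and 2 members (3.45%, against 6.02%) at an unadjusted p under 0.05. The groups did not overlap in 3 members (5.17%, against 10.6% of all genes), Cdc6, Ccnd3 and Cdk6, all lower in GFP+ cells. The median was -0.12 over 12 libraries and -0.05 over 10, with 41 and 34 values below 0. Each comparison of GFP shares its libraries with a comparison of treatment, so their values are not independent.

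Averaged over treatments, GFP+ against GFP- gave no called member over 12 libraries (0.31% of all genes) or over 10 (1.08%). At an unadjusted p under 0.05, 4 members passed over 12 libraries (6.90%, against 8.18% of all genes), E2f1 higher and Ccnb2, Cdk6 and Cdkn2d lower in GFP+ cells. Over 10 libraries 5 passed (8.62%, against 10.3%), E2f1 higher and Tyms, Ccnd3, Cdk4 and Cdk6 lower. DESeq2 and limma-voom called none (1.11 and 0.889% of all genes), with 4 (6.90%, against 9.27% of all genes) and 6 members (10.3%, against 10.1%) at an unadjusted p under 0.05. NK cell markers, of which none of 5 was at 0 in any library, summed to 157 to 189 CPM in GFP- and 224 to 279 CPM in GFP+ libraries. Of these, Fcer1g stood at 42.1 to 154 CPM and Ncr1 at 1.21 to 6.65 CPM. The part of NK cells in the values of the cell cycle genes was not tested. B cell markers summed to 71.3 to 110 CPM in GFP- and 94.6 to 172 CPM in GFP+ libraries, and the same holds for them. Of these, 4 of 6 were at 0 in some library (Cd79a stood at 0 to 0.94 CPM). In non-treated cells, T cell markers summed to 5510 to 5650 CPM in GFP- and 4770 to 5140 CPM in GFP+ libraries. In the same order, dendritic cell markers summed to 58.3 to 85.8 and 87.3 to 123 CPM. Endothelial markers summed to 13.1 to 16.5 and 21.5 to 25.6 CPM. These lists overlapped after anti-PD-L1. There carcinoma markers (201 to 305 and 135 to 198 CPM) and neutrophil markers (1.21 to 1.45 and 0.152 to 0.773 CPM) did not overlap. The part of any of these was not tested either.

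The third question was whether the response to anti-PD-L1 differed between GFP+ and GFP- cells. No member was called for the interaction of GFP and treatment over 12 libraries (0% of all genes in edgeR) or over 10 (0%). Ccna2 had an unadjusted p under 0.05 over 12 libraries (1.72% of members, against 2.08% of all genes), and Ccna2 and Mki67 over 10 (3.45%, against 4.29%). DESeq2 and limma-voom called none (0 and 0% of all genes), with 1 member each (1.72%, against 2.64 and 4.02% of all genes) at an unadjusted p under 0.05. In no member did both GFP+ and GFP- treatment effects stand clear of overlap in opposite directions.

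The replication class held 10 genes, the sliding clamp Pcna, the helicase subunits Mcm2 to Mcm7, and the origin and fork factors Gins2, Cdc6 and Cdc45. None was called in any comparison. For treatment averaged over GFP, 9 of 10 values were below 0 over 12 libraries (median -0.15, from -0.24 to 0.17) and 8 over 10 (median -0.11, from -0.30 to 0.14). Summed, the class stood at 899, 889 and 831 CPM in non-treated GFP- libraries and 943, 947 and 938 CPM in non-treated GFP+ libraries. After treatment the sums were 880, 843 and 847 CPM in GFP- and 991, 808 and 782 CPM in GFP+ libraries. The 3 non-treated GFP+ sums lay above the 3 non-treated GFP- sums, and the treated GFP+ sums spanned the whole range of the series.

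Pcna, which holds polymerases on DNA, stood at 206, 213 and 200 CPM in non-treated GFP-, 245, 197 and 221 in non-treated GFP+, 218, 228 and 212 in anti-PD-L1 GFP- and 236, 167 and 201 in anti-PD-L1 GFP+ libraries. All groups overlapped, and its interval for treatment averaged over GFP ran from -0.25 to 0.21 on the log2 scale over 12 libraries and from -0.09 to 0.25 over 10. Mcm5 stood at 76.6, 70.3 and 59.0 CPM in non-treated GFP-, 114, 65.6 and 78.3 in non-treated GFP+, 59.6, 56.0 and 63.7 in anti-PD-L1 GFP- and 74.8, 79.2 and 58.7 in anti-PD-L1 GFP+ libraries. Its highest value was that of KT13, and its log2 difference of GFP+ from GFP- averaged over treatments was 0.28 (interval -0.02 to 0.59) over 12 libraries and 0.11 (-0.11 to 0.34) over 10. Mcm4 spanned 89.7 to 118 CPM in the 10 libraries, while KT21 stood at 23.7 CPM. Mcm7, with 1 of its 2 matched promoters printed above, spanned 76.6 to 133 CPM over the 10 libraries. Its treatment value averaged over GFP was -0.14 on the log2 scale over 12 libraries (interval -0.47 to 0.19) and -0.30 over 10 (SE 0.118, edgeR adjusted p = 0.296). Mcm2 spanned 54.9 to 89.5 CPM over the 10 libraries, with -0.17 over 12 (interval -0.45 to 0.11) and -0.26 over 10 (SE 0.105, edgeR adjusted p = 0.331).

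Nucleotide supply was represented by thymidylate synthase (Tyms), the ribonucleotide reductase subunits Rrm1 and Rrm2, thymidine kinase (Tk1) and dUTPase (Dut). The medians for treatment were -0.09 over 12 and -0.04 over 10 libraries, with 4 of 5 values below 0 in both. Tyms stood at 34.5, 36 and 34.5 CPM in non-treated GFP-, 42.5, 25.6 and 28.0 in non-treated GFP+, 30.3, 32.1 and 27.1 in anti-PD-L1 GFP- and 26.0, 30.4 and 25.0 in anti-PD-L1 GFP+ libraries. KT13 held its highest value, and with KT13 and KT21 left out all 4 GFP+ values lay below the 3 non-treated GFP- values. Its log2 difference of GFP+ from GFP- averaged over treatments was -0.14 over 12 libraries (interval -0.43 to 0.16) and -0.31 over 10 (SE 0.118, interval -0.55 to -0.07, adjusted p = 0.312 in edgeR). Rrm2 stood at 49.6, 57.0 and 43.5 CPM in non-treated GFP-, 48.2, 47.7 and 42.3 in non-treated GFP+, 48.6, 45.1 and 54.4 in anti-PD-L1 GFP- and 54.6, 26.1 and 29.4 in anti-PD-L1 GFP+ libraries. KT21 and KT23 were its lowest libraries, while KT19 of the same group was among the highest.

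Uhrf1, Dnmt1 and Ezh2 copy DNA and histone methylation onto new chromatin. Their medians for treatment were -0.12 over 12 and -0.08 over 10 libraries. Uhrf1, which guides Dnmt1 to replicated DNA, stood at 68.6, 62.1 and 61.8 CPM in non-treated GFP-, 51.0, 63.4 and 64.4 in non-treated GFP+, 69.2, 46.5 and 52.4 in anti-PD-L1 GFP- and 70.4, 43.1 and 52.0 in anti-PD-L1 GFP+ libraries. All 4 groups overlapped. Dnmt1 spanned 52.6 to 95.6 CPM and Ezh2 42.9 to 65.4 CPM over the 10 libraries.

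**Figure D4:**
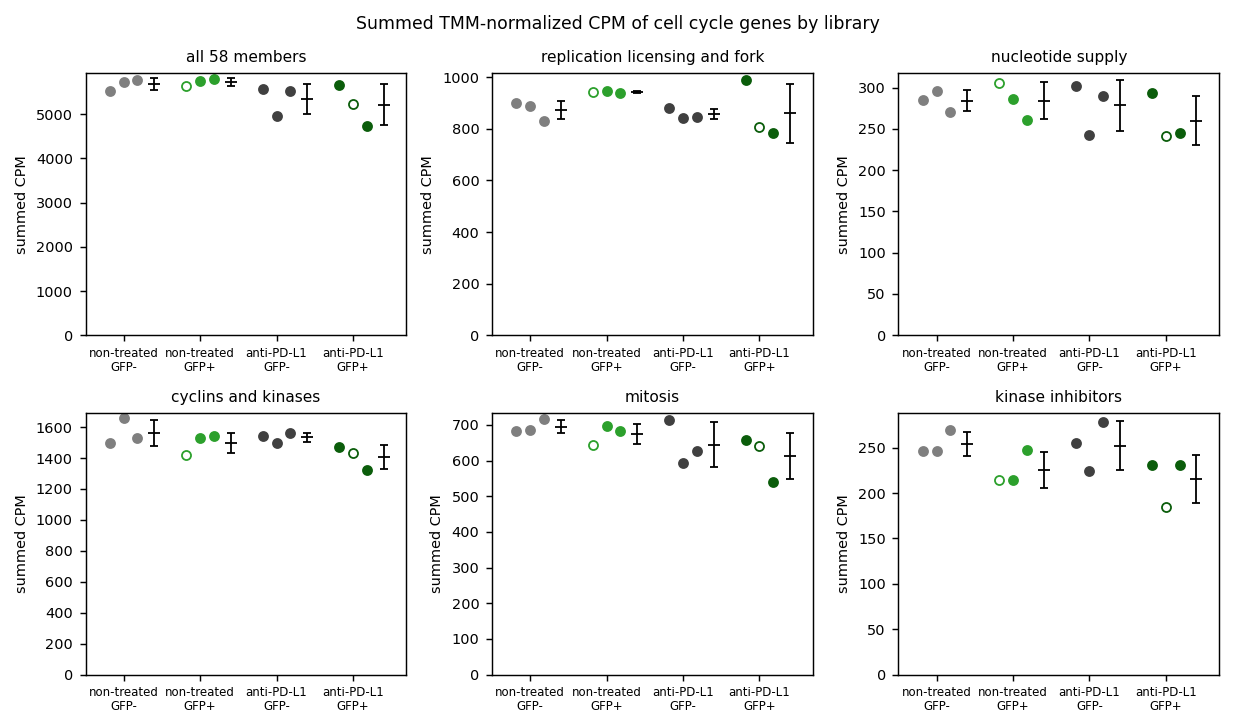
Summed CPM (vertical axes, starting at 0) of all 58 genes and of 5 of their classes in the 4 groups, 1 point per library, with open points for KT13 and KT21 and bars for mean ± SD (n = 3). The sums of all members span 4745 to 5803 CPM, and in the panel of cyclins and kinases the treated GFP+ points (1320 to 1470) lie below the treated GFP- points (1500 to 1560).

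Of the 7 cyclins and 4 kinases, 8 of 11 values for treatment averaged over GFP were below 0 over 12 libraries (median -0.03) and 5 over 10 (median 0.02). For GFP+ against GFP- averaged over treatments, 8 of 11 values were below 0 over 12 libraries (median -0.15) and 7 over 10 (median -0.17). None was called. Summed, the class stood at 1500, 1660 and 1530 CPM in non-treated GFP-, 1420, 1530 and 1540 in non-treated GFP+, 1540, 1500 and 1560 in anti-PD-L1 GFP- and 1470, 1430 and 1320 in anti-PD-L1 GFP+ libraries. Treated GFP+ sums lay below treated GFP- sums, while the non-treated groups overlapped.

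Ccna2, the S and G2 phase partner of Cdk2 and Cdk1, stood at 37.0, 37.9 and 38.9 CPM in non-treated GFP- and 27.9, 26.8 and 27.6 CPM in non-treated GFP+ libraries. It stood at 32.2, 34.1 and 27.1 CPM in anti-PD-L1 GFP- and 35.2, 26.8 and 33.8 CPM in anti-PD-L1 GFP+ libraries. Both non-treated groups were tight and apart, and the treated groups overlapped each other. Its log2 difference of GFP+ from GFP- in non-treated cells was -0.47 over 12 libraries (SE 0.162, interval -0.81 to -0.12, unadjusted p = 0.0118, adjusted p = 0.675 in edgeR) and -0.48 over 10 (adjusted p = 0.315). After treatment it was 0.04 (interval -0.31 to 0.38) over 12 libraries and 0.15 (-0.19 to 0.49) over 10. The interaction was 0.51 (SE 0.229, edgeR adjusted p = 1) over 12 and 0.63 (SE 0.23, adjusted p = 1) over 10.

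Ccnb1 and Ccnb2 encode the B cyclins that drive mitosis with Cdk1. Ccnb1 stood at 16.4, 16.7 and 12.8 CPM in non-treated GFP-, 18.6, 16.6 and 12.3 in non-treated GFP+, 14.9, 13.8 and 13.3 in anti-PD-L1 GFP- and 19.6, 14.3 and 13.7 in anti-PD-L1 GFP+ libraries, with overlap throughout. Ccnb2 stood at 26.5, 27.1 and 30.4 CPM in non-treated GFP-, 16.7, 24.0 and 20.4 in non-treated GFP+, 32.1, 28.3 and 28.2 in anti-PD-L1 GFP- and 28.9, 15.3 and 24.7 in anti-PD-L1 GFP+ libraries. Its lowest values were those of KT21 and KT13. The log2 difference of GFP+ from GFP- averaged over treatments was -0.41 over 12 libraries (SE 0.158, interval -0.75 to -0.07, adjusted p = 0.509 in edgeR) and -0.24 over 10 (interval -0.50 to 0.02), and that of Ccnb1 was 0.11 (interval -0.23 to 0.45) over 12 and 0.08 (-0.26 to 0.42) over 10.

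Ccne1 carries cells from G1 into S phase. It stood at 19.5, 19.6 and 18.6 CPM in non-treated GFP-, 16.2, 21.5 and 16.6 in non-treated GFP+, 19.5, 20.0 and 20.1 in anti-PD-L1 GFP- and 17.6, 20.7 and 12.9 in anti-PD-L1 GFP+ libraries. GFP- libraries were tight and lay within the range of the GFP+ ones. Ccne2, with 61 to 221 counts per library, was the member with the widest spread within groups over the 10 libraries (SD 0.572 on the log2 scale).

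The D cyclins answer to T cell receptor and cytokine signals. Ccnd2 stood at 813, 973 and 851 CPM in non-treated GFP-, 798, 895 and 961 in non-treated GFP+, 839, 841 and 816 in anti-PD-L1 GFP- and 846, 873 and 734 in anti-PD-L1 GFP+ libraries. Its groups overlapped, and its interval for treatment averaged over GFP was -0.30 to 0.11 on the log2 scale over 12 libraries and -0.31 to 0.00 over 10. Ccnd3 stood at 280, 249 and 281 CPM in non-treated GFP-, 258, 244 and 210 in non-treated GFP+, 244, 259 and 322 in anti-PD-L1 GFP- and 234, 237 and 224 in anti-PD-L1 GFP+ libraries. Treated GFP+ values lay below the treated GFP- values, and the difference averaged over treatments was -0.22 on the log2 scale over 12 libraries (interval -0.44 to 0.01, adjusted p = 0.617 in edgeR) and -0.26 over 10 (SE 0.0901, interval -0.45 to -0.07, adjusted p = 0.247).

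Among the kinases, Cdk6, a partner of the D cyclins, stood at 196, 238 and 188 CPM in non-treated GFP- and 172, 187 and 170 CPM in non-treated GFP+ libraries. After anti-PD-L1 it stood at 249, 188 and 229 CPM in GFP- and 178, 154 and 187 CPM in GFP+ libraries. Within each treatment all GFP+ values lay below all GFP- values, in treated cells by a margin as narrow as 188 against 187 CPM. The log2 difference averaged over treatments was -0.30 over 12 libraries (SE 0.111, interval -0.53 to -0.06, adjusted p = 0.494 in edgeR) and -0.25 over 10 (SE 0.0953, adjusted p = 0.312). Cdk4 stood at 47.4, 34.3 and 36.2 CPM in non-treated GFP-, 70.1, 31.5 and 40.7 in non-treated GFP+, 48.8, 49.5 and 43.2 in anti-PD-L1 GFP- and 39.9, 53.2 and 31.1 in anti-PD-L1 GFP+ libraries. KT13 and KT21 were its 2 highest libraries, and its GFP difference was 0.04 over 12 libraries and -0.27 over 10 (SE 0.127, adjusted p = 0.478).

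Cdk1, the kinase of mitotic entry, showed the opposite picture in the same 2 libraries. It stood at 45.6, 45.4 and 48.3 CPM in non-treated GFP-, 27.4, 59.2 and 50.6 in non-treated GFP+, 40.7, 39.6 and 44.2 in anti-PD-L1 GFP- and 49.3, 18.0 and 41.9 in anti-PD-L1 GFP+ libraries. KT13 and KT21 were its lowest libraries, and the other 10 spanned 39.6 to 59.2 CPM. Its log2 fold change for treatment averaged over GFP was -0.25 over 12 libraries (interval -0.72 to 0.23) and -0.21 over 10 (interval -0.43 to 0.01, adjusted p = 0.467 in edgeR). Cdk2 was likewise lowest in KT13.

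The mitotic class held 19 genes, with Mki67 described above. For treatment averaged over GFP, 16 of 19 values were below 0 over 12 libraries (median -0.11) and 15 over 10 (median -0.14). Summed, the class stood at 683 to 717 CPM in non-treated GFP-, 644 to 696 in non-treated GFP+, 593 to 714 in anti-PD-L1 GFP- and 540 to 658 in anti-PD-L1 GFP+ libraries. Its ratio to the replication sum was 0.664 to 0.863 over all libraries, with group means of 0.798 ± 0.0568 and 0.716 ± 0.0284 (SD, n = 3 each) in non-treated GFP- and GFP+ cells and 0.752 ± 0.0554 and 0.716 ± 0.0686 after treatment.

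Top2a, which untangles replicated chromosomes, stood at 141, 135 and 138 CPM in non-treated GFP-, 136, 165 and 137 in non-treated GFP+, 153, 123 and 114 in anti-PD-L1 GFP- and 128, 175 and 101 in anti-PD-L1 GFP+ libraries. As for Mki67, KT21 was its highest library, and the other treated GFP+ libraries lay below the non-treated GFP+ ones. Its log2 fold change for treatment averaged over GFP was -0.10 over 12 libraries (interval -0.39 to 0.19) and -0.24 over 10 (SE 0.0997, interval -0.45 to -0.03, adjusted p = 0.337 in edgeR).

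Cdc20 activates the anaphase-promoting complex. It stood at 36.5, 32.2 and 35.9 CPM in non-treated GFP-, 40.1, 30.2 and 27.8 in non-treated GFP+, 28.6, 24.8 and 24.9 in anti-PD-L1 GFP- and 28.8, 29.7 and 23.4 in anti-PD-L1 GFP+ libraries. All treated GFP- values lay below all non-treated GFP- values. Its log2 fold change for treatment averaged over GFP was -0.34 over 12 libraries (SE 0.127, interval -0.61 to -0.06, adjusted p = 0.51 in edgeR) and -0.28 over 10 (SE 0.122, adjusted p = 0.367). Kif23, a kinesin of the central spindle, spanned 17.2 to 30.9 CPM with -0.39 over 12 libraries (SE 0.142, adjusted p = 0.478) and -0.29 over 10 (SE 0.136, adjusted p = 0.415).

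Birc5 (survivin), a subunit of the chromosomal passenger complex with Aurkb, stood at 66.4, 59.3 and 88.4 CPM in non-treated GFP-, 50.7, 69.1 and 61.4 in non-treated GFP+, 72.6, 52.5 and 70.6 in anti-PD-L1 GFP- and 66.7, 54.9 and 50.1 in anti-PD-L1 GFP+ libraries, and the groups overlapped. Cenpa, with its promoter printed above, spanned 41.2 to 70.4 CPM over the 10 libraries and stood at 34.1 CPM in KT13 and 25.2 CPM in KT21. Cenpf, a kinetochore protein, spanned 8.96 to 28.4 CPM, and its treatment value averaged over GFP was -0.39 on the log2 scale over 12 libraries (interval -0.90 to 0.12) and -0.53 over 10 (SE 0.214, interval -0.97 to -0.08, adjusted p = 0.327 in edgeR). The remaining mitotic genes were the kinases Plk1, Aurka, Aurkb, Bub1 and Bub1b, the kinesins Kif11 and Kif20a, the kinetochore motor Cenpe, the spindle proteins Tpx2, Hmmr and Nusap1, and the ubiquitin-conjugating enzyme Ube2c. None of these 12 had an unadjusted p under 0.05 in any of the 7 comparisons in either set of libraries.

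Stathmin, HMGB2 and the tubulins Tubb5 and Tuba1b are abundant in dividing T cells. All 4 values for treatment were below 0 in both sets, with medians of -0.17 over 12 and -0.20 over 10 libraries, and none was called. Summed, the class stood at 1700, 1710 and 1900 CPM in non-treated GFP- and 1890, 1850 and 1900 CPM in non-treated GFP+ libraries. After treatment the sums were 1620, 1350 and 1690 CPM in GFP- and 1780, 1730 and 1430 CPM in GFP+ libraries. Within either GFP fraction all treated sums lay below all non-treated sums, in GFP- cells by as little as 1690 against 1700 CPM. These sums were not tested. Stmn1, which destabilizes microtubules, stood at 211, 228 and 240 CPM in non-treated GFP-, 212, 212 and 260 in non-treated GFP+, 187, 169 and 223 in anti-PD-L1 GFP- and 231, 251 and 185 in anti-PD-L1 GFP+ libraries, with overlap throughout. Hmgb2, a chromatin protein, stood at 160, 195 and 153 CPM in non-treated GFP-, 326, 136 and 166 in non-treated GFP+, 179, 152 and 126 in anti-PD-L1 GFP- and 144, 164 and 112 in anti-PD-L1 GFP+ libraries. KT13 lay far above the others, and the log2 fold change of Hmgb2 for treatment in GFP+ cells was -0.58 over 12 libraries (interval -1.17 to 0.01) and -0.24 over 10 (interval -0.59 to 0.11). Tuba1b stood at 901, 869 and 1070 CPM in non-treated GFP-, 546, 1040 and 999 in non-treated GFP+, 779, 693 and 939 in anti-PD-L1 GFP- and 934, 696 and 796 in anti-PD-L1 GFP+ libraries. KT13 was its lowest library and, at 804 CPM, the highest for Tubb5. The log2 fold change of Tuba1b for treatment averaged over GFP was -0.16 over 12 libraries (interval -0.50 to 0.17) and -0.23 over 10 (SE 0.0878, interval -0.42 to -0.05, adjusted p = 0.266 in edgeR). Tubulin, Pcna and Hmgb2 reads may be shared with near-identical relatives or pseudogenes, so their levels are uncertain.

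The kinase inhibitors hold cells in G1. Cdkn1b (p27), high in resting T cells, stood at 127, 121 and 127 CPM in non-treated GFP-, 68.4, 118 and 130 in non-treated GFP+, 135, 116 and 146 in anti-PD-L1 GFP- and 122, 84.6 and 125 in anti-PD-L1 GFP+ libraries. KT13 and KT21 lay below all others, which spanned 116 to 146 CPM. Its log2 difference of GFP+ from GFP- averaged over treatments was -0.25 over 12 libraries (interval -0.58 to 0.09) and -0.05 over 10 (interval -0.24 to 0.13). Cdkn1a (p21), a target of p53, stood at 30.9, 29.7 and 36.5 CPM in non-treated GFP-, 65.4, 19.3 and 31.5 in non-treated GFP+, 31.0, 30.4 and 31.2 in anti-PD-L1 GFP- and 24.5, 34.7 and 29.3 in anti-PD-L1 GFP+ libraries. Non-treated GFP+ cells held both its highest library, KT13, and its lowest, KT15. Cdkn2c (p18) stood at 8.91, 13.0 and 9.06 CPM in non-treated GFP-, 19.5, 7.34 and 9.30 in non-treated GFP+, 13.3, 7.77 and 8.98 in anti-PD-L1 GFP- and 9.92, 13.6 and 9.03 in anti-PD-L1 GFP+ libraries, again with KT13 highest and KT15 lowest. Cdkn2d (p19) stood at 79.7, 82.7 and 97.6 CPM in non-treated GFP-, 60.8, 69.2 and 76.8 in non-treated GFP+, 75.9, 69.4 and 92.0 in anti-PD-L1 GFP- and 74.5, 52.2 and 67.4 in anti-PD-L1 GFP+ libraries. Its non-treated groups did not overlap, and the GFP difference averaged over treatments was -0.31 over 12 libraries (SE 0.124, adjusted p = 0.528 in edgeR) and -0.20 over 10 (interval -0.42 to 0.01).

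Of the E2F activators, E2f1 was the member with the largest GFP difference over 12 libraries in non-treated cells and averaged over treatments, though not in anti-PD-L1 cells, where it was 0.30 (interval -0.16 to 0.76) and that of Aurkb was -0.57. It stood at 17.0, 15.4 and 16.4 CPM in non-treated GFP-, 28.2, 30.5 and 19.7 in non-treated GFP+, 16.1, 17.0 and 14.5 in anti-PD-L1 GFP- and 19.5, 23.8 and 15.3 in anti-PD-L1 GFP+ libraries. All non-treated GFP+ values lay above all GFP- values of either treatment, and the treated GFP+ values overlapped both. The log2 difference of E2f1 was 0.68 in non-treated cells (SE 0.214, interval 0.22 to 1.14, unadjusted p = 0.00662, adjusted p = 0.596 in edgeR) and 0.49 averaged over treatments (SE 0.152, adjusted p = 0.341) over 12 libraries, and 0.63 (adjusted p = 0.31) and 0.38 (adjusted p = 0.353) over 10. E2f2 stood at 22.9, 26.1 and 30.6 CPM in non-treated GFP-, 15.8, 19.9 and 22.0 in non-treated GFP+, 21.3, 26.9 and 25.6 in anti-PD-L1 GFP- and 24.0, 23.4 and 27.0 in anti-PD-L1 GFP+ libraries. It ran opposite to E2f1 in non-treated cells, with a log2 difference of -0.46 over 12 libraries (SE 0.189, adjusted p = 0.776) and -0.34 over 10 (interval -0.73 to 0.05).

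Much of the variation of these genes lay between libraries of 1 group. KT13 held the highest or lowest value of 21 members (36.2%, against 33.1% of all genes), KT21 of 25 members (43.1%, against 35.0%) and KT23 of 20 members (34.5%, against 13.6%). Of these, 15 of the 21 in KT13 were highest values, whereas 21 of the 25 in KT21 and 18 of the 20 in KT23 were lowest values. KT23 had a median Spearman correlation of 0.973 with the other libraries, so it did not stand apart over all genes. The median SD within groups was 0.253 on the log2 scale over 12 libraries and 0.200 over 10, and the median SE of a treatment effect averaged over GFP was 0.156 and 0.126.

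A further 119 cell cycle genes outside the 58 were read from the same fits. Of 35 other S phase genes and 46 other G2 and M phase genes, none was called in any comparison in either set. For treatment averaged over GFP over 12 libraries, 27 of the 35 and 31 of the 46 values were below 0, with medians of -0.12 and -0.06, beside -0.01 over all genes. At an unadjusted p under 0.05, 6 of the 35 (17.1%, all lower) and 1 of the 46 (2.17%, higher) passed, against 7.67% of all genes. Over 10 libraries 7 of the 35 (20%, all lower) and 4 of the 46 (8.70%, 3 of them lower) did, against 11.2%. Of 38 genes of transcriptional control and quiescence, Klf2 was called for treatment averaged over GFP in both sets (0.395% of all genes over 12 libraries and 1.36% over 10) and within GFP+ cells over 10 (0.563%). Myc was called for GFP averaged over treatments over 10 libraries (1.08% of all genes). No other of the 38 was called in any of the 7 comparisons in either set. Klf2, a factor of T cell quiescence and exit from tissue, stood at 459, 278 and 418 CPM in non-treated GFP-, 599, 313 and 516 in non-treated GFP+, 255, 213 and 225 in anti-PD-L1 GFP- and 251, 183 and 196 in anti-PD-L1 GFP+ libraries. All treated values lay below all non-treated ones, and Klf2 fell by 0.96 on the log2 scale averaged over GFP over 12 libraries (SE 0.17, adjusted p = 0.0239 in edgeR) and by 0.81 over 10 (SE 0.132, adjusted p = 0.000829). Over 12 libraries the edgeR call was lost, with adjusted p from 0.0541 to 0.0942, when KT14, KT17, KT18, KT20, KT22, KT23 or KT24 was left out, and over 10 libraries it held whichever library was left out. Within GFP+ cells it fell by 0.89 over 10 libraries (SE 0.204, adjusted p = 0.0441), and the value over 12 was -1.18 (SE 0.241, adjusted p = 0.0984). Over the same 12 libraries Klf2 was called in GFP+ cells by DESeq2 (adjusted p = 0.00247) and by limma-voom (0.0405). With no filter on low counts, edgeR called it too (adjusted p = 3.82e-06). It was not called with upper-quartile factors (edgeR adjusted p = 0.111) or a stricter filter on low counts (0.0788). Fitting the 2 GFP+ groups alone gave no call either (edgeR adjusted p = 0.752). Leaving out any 1 of the 12 libraries also gave no call (edgeR adjusted p from 0.0749 to 0.531). The edgeR call over 10 libraries was lost without KT17 (-0.49, edgeR adjusted p = 0.472), KT20 (adjusted p = 0.056), KT22 (0.0729) or KT23 (0.512).

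Myc, a driver of T cell growth, stood at 9.19, 13.9 and 16.2 CPM in non-treated GFP-, 21.7, 25.5 and 21.0 in non-treated GFP+, 11.4, 6.49 and 9.81 in anti-PD-L1 GFP- and 20.4, 5.76 and 14.1 in anti-PD-L1 GFP+ libraries. KT21 was its lowest library. Averaged over treatments it was higher in GFP+ cells by 0.87 on the log2 scale over 10 libraries (SE 0.19, adjusted p = 0.0189 in edgeR), and the value over 12 was 0.67 (SE 0.262, adjusted p = 0.515), not called by DESeq2 (0.321) or limma-voom (0.0941) either. The call over 10 libraries was lost without KT15 (edgeR adjusted p = 0.0991), KT19 (0.143) or KT22 (0.0649).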

How the data were processed

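RNA of sorted CD8+ T cells was sequenced from 3′ ends as single-end reads. The authors trimmed the reads with Cutadapt, aligned them to mm10 with HISAT2 and counted them per gene with featureCounts. The processing notes give Cutadapt 1.7 and Subread 1.6.4, while the published methods name another Cutadapt version and featureCounts from Rsubread. The deposited values are raw counts in 12 columns, 1 per library. The Ensembl release is not given in the sources used here. Symbols came from GENCODE vM21 and matched 52403 of 52636 identifiers.

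In edgeR 4.0.16 (R 4.3.3), TMM factors scaled the counts, which were filtered by filterByExpr on the 4 conditions (14173 genes over 12 libraries, 14747 over 10), and tested with the quasi-likelihood F test in 1 fit without covariates, with Benjamini-Hochberg adjustment over all genes tested and calls at an adjusted p under 0.05. The 7 comparisons were GFP within each treatment, treatment within each GFP gate, their interaction, and both averages. SE is the absolute log2 fold change divided by the square root of F, and 95% intervals use the residual and prior degrees of freedom. Groups follow the sample labels, which give no batch. Libraries of a group differed by far more than sampling noise (chi-square over its degrees of freedom at least 12.7), so none was a copy of another. P-values measure the spread between libraries, each from a pool of 3 mice, and take all libraries as independent. Whether a pool gave both a GFP+ and a GFP- library is not given in the sources used here. Reads carry no molecular identifiers here.

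Alternatives were DESeq2 1.42.0, limma 3.58.1 (voom with library quality weights), upper-quartile factors, other filters on low counts, 2-group fits, leaving out each library, and the 10 libraries without KT13 and KT21. Leaving out each of those 10 was added after seeing the data. Members with values in every library are a fixed list of 27 genes. Other members are given by range and count, those singled out having been chosen after their values were seen, and genes outside the 58 are named where called. A change of direction was counted where the unadjusted p in the 12-library fit was under 0.05. The members, lists and left-out libraries were chosen with earlier results of these data known. Scripts were tested on simulated data.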

Additional observations from a re-analysis of the deposited data

How the results depend on the processing

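The number of cell cycle genes called was 0 in each of the 7 comparisons over 12 libraries, and it was also 0 with DESeq2, with limma-voom, with upper-quartile factors, with either filter on low counts, and whichever of the 12 libraries was left out. In the 4 comparisons of 2 groups it was also 0 when those groups were fitted alone. Without KT13 and KT21 it was 1 (Mki67, lower after anti-PD-L1) in GFP+ cells and 1 (Mki67) averaged over GFP, and 0 in the other comparisons. Why these libraries differ was not tested. With 1 library left out, the median log2 fold change of the members for treatment in GFP+ cells ranged from -0.27 (without KT19) to -0.07 (without KT23). It ranged from -0.16 to -0.07 for treatment averaged over GFP, and from -0.14 to -0.02 for GFP averaged over treatments. In those fits for treatment averaged over GFP, between 1 and 7 members had an unadjusted p under 0.05, where 5.90 to 9.95% of all genes did. The 7 (12.1%, against 7.70% of all genes) were without KT15. Over all genes, edgeR called 0 to 56 genes per comparison over 12 libraries, DESeq2 0 to 180, limma-voom 0 to 132, and edgeR over 10 libraries 0 to 201. No paired analysis was made because the labels pair no libraries. Whether GFP+ and GFP- libraries came from the same pools of mice is not given in the sources used here. If they did, the fits took libraries of the same pool as independent. With 3 pools a group and a median SE of 0.156 on the log2 scale, shifts of the size seen in most members cannot be told from the spread between pools.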
